A study of Mus musculus with 6 samples.

Results

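Interferon-inducible genes were measured in whole mammary glands of virgin female mice as 41 genes of a fixed list, found by their GENCODE M21 symbols among the 55450 genes of the count table. All 41 were in the table, and 40 passed the filter on low counts. Total RNA, depleted of ribosomal RNA, was sequenced from 3 Hpn-/- and 3 WT glands of the FVB strain, and Hpn, the gene of the membrane serine protease hepsin, had been disrupted with CRISPR/Cas9. By age, the Hpn-/- glands came at 6 weeks (replicates 1 and 2) and 5 weeks (replicate 3), and the WT glands at 2 weeks (replicate 1), 6 weeks (replicate 2) and 5 weeks (replicate 3). The labels do not say how many founder lines the Hpn-/- mice came from.

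Interferons are cytokines, and cells release those of type I when they sense foreign or misplaced nucleic acid. Type I interferons bind the IFNAR receptor, whose kinases JAK1 and TYK2 activate a transcription factor complex that includes STAT2 and IRF9 and binds the interferon-stimulated response element (ISRE) in promoters. Interferon gamma acts through the gamma-activated site (GAS). Many of the target genes are also expressed at a low tonic level in healthy tissue, and lymphocytes and myeloid cells of the gland express many of them more strongly than fat or epithelium does.

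The counts summed to between 10971661 and 18807615 per library, but loci derived from ribosomal RNA took 78.0% to 84.3% of them, which left 1798932 to 3071401 counts for all other genes. The 41 members together had 3426 to 5156 counts per library. The targeted gene Hpn had 4, 3 and 5 counts in Hpn-/- replicates 1, 2 and 3, against 12, 6 and 4 in WT replicates 1, 2 and 3, too few to check the genotype. The summed level of 5 skeletal muscle markers ran from 12.7 to 825 CPM in Hpn-/- glands and from 38.9 to 536 CPM in WT glands. Levels are given as CPM, counts brought to a common library size with TMM, a scaling that sets aside the most extreme genes. The library size includes the loci derived from ribosomal RNA, so each CPM is several times lower than on the counts of all other genes. Keratin genes of the epithelium and Adipoq and Plin1 of fat were detected in every library, as the labelled tissue would have. For the interferon-inducible genes, Hpn-/- replicate 2 stood apart from the other libraries, and some results are given with and without it. The other results, among them Ifi213, Sp100, the cell type markers and the lists of further genes, are given with all libraries only. Their dependence on Hpn-/- replicate 2 is not shown here.

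The promoters show what the members share in sequence, so they come before the levels. RefSeq promoter windows on GRCm38, 250 bases before to 50 bases after a start, were given for 32 of the 41 genes, the exceptions being Ifi204, Oas2, Dhx58, Zbp1, Usp18, Mx1, Rtp4, Ifi27 and Parp14. The ISRE core, GAAA and again GAAA with any 2 bases between them, searched on both strands with overlapping matches counted, was present in 18 of these 32 genes (56.2%), against 3.99% of all 27025 genes with a window. The GAS core TTCNNNGAA, which reads the same on both strands, was present in 8 of the 32 (25.0%), against 9.55% of all genes. In the Ifi200 family 5 of 6 genes with a window held the ISRE core and 0 held the GAS core. The windows below are read 5′ to 3′ on the gene's strand, with ISRE matches in capitals, and they show the stretch that recurs in the Ifi200 family:
Ifi203, chr1:173942503-173942542, minus strand: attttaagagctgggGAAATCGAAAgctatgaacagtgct
Mndal, chr1:173880199-173880238, minus strand: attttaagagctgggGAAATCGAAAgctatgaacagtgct
Ifi207, chr1:173741826-173741865, minus strand: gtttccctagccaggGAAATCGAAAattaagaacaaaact
Ifi211, chr1:173913059-173913098, minus strand: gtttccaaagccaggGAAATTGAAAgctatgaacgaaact
Ifi213, chr1:173599321-173599360, minus strand: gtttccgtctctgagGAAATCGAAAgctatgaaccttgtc

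The match began 35 bases before the start in Ifi203, 36 in Mndal, 41 in Ifi207, 37 in Ifi211 and 73 in Ifi213. The windows of Ifi203 and Mndal were identical over the 40 bases shown. Ifi209, which had the largest difference between the genotypes of all members, is the family gene whose window had no exact match on either strand. Its window held 4 stretches that differ from the core by 1 letter, shown in capitals, and 35.4% of the 32851 windows of all genes hold at least one stretch within that distance:
Ifi209, chr1:173630609-173630908, plus strand: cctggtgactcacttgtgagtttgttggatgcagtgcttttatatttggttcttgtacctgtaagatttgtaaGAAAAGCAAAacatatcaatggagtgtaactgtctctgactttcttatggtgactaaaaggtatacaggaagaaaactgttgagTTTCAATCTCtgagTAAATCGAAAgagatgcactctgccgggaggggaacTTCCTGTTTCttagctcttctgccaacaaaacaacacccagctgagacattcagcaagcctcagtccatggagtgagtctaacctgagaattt

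Outside the Ifi200 family, 13 of 26 genes with a window held the ISRE core. Isg15, Oas1a, Oas3, Ifit1, Gbp2 and Gbp7 are shown because their levels are described below, and the core lies on the opposite strand in the last 3:
Isg15, chr4:156200860-156200911, minus strand: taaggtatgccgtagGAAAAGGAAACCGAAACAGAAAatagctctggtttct
Oas1a, chr5:120907515-120907560, minus strand: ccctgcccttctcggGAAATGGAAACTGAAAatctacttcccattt
Oas3, chr5:120777710-120777749, minus strand: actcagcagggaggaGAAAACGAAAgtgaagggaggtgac
Ifit1, chr19:34640770-34640828, plus strand: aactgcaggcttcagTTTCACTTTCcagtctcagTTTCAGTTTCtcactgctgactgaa
Gbp2, chr3:142620589-142620628, plus strand: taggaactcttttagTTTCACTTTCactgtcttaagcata
Gbp7, chr3:142530268-142530307, plus strand: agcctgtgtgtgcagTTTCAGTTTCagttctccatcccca

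Ifit2, Irf1, Psmb8, Samhd1 and Ifi35 held the GAS core and no ISRE core. Of these, Irf1 and Psmb8 are shown, with the GAS match in capitals:
Irf1, chr11:53769909-53769947, plus strand: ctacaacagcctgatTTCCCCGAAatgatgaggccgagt
Psmb8, chr17:34198083-34198121, plus strand: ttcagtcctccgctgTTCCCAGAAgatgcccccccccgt

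A match is a description of the letters in the window, and the binding of a factor there was not measured in these samples.

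Hpn-/- glands were compared with WT glands to see whether interferon-inducible genes differ in the absence of hepsin. None of the 40 tested members passed edgeR's quasi-likelihood test at an adjusted p under 0.05, against 0.016% of all 12520 tested genes (2 genes). At an unadjusted p under 0.05, Ifi209, Usp18 and Sp100 were higher and Ifit1 was lower, which is 3 of 40 higher and 1 of 40 lower, beside 3.98% and 2.9% of all tested genes. DESeq2, which tested all 41, called 0 members and had 1 higher and 0 lower at the unadjusted threshold. Over its 25242 tested genes, 286 were higher and 215 lower at that threshold. With limma-voom 0 of 40 members were called, and 2 were higher and 0 lower at the unadjusted threshold. Over its 12520 tested genes, 436 were higher and 382 lower. The values of 26 members were higher and those of 14 lower in Hpn-/- glands, while 50.9% of all tested genes were higher. The median log2 fold change of the tested members was 0.16, against 0.00466 for all tested genes. Positive log2 fold changes mean a higher level in Hpn-/- glands. The median standard error of a member's log2 fold change was 0.221, so differences of this size in a single gene lay within the error.

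**Figure D1:**
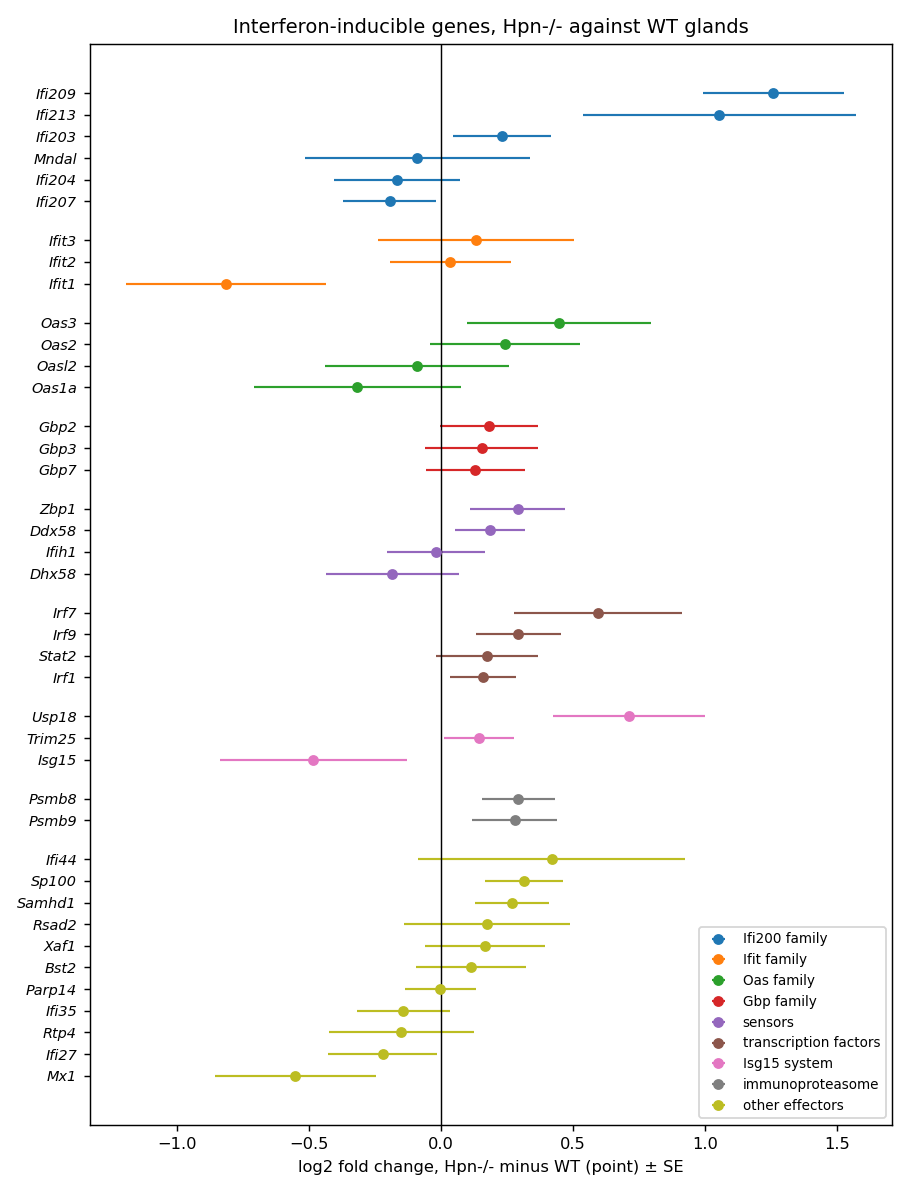
Log2 fold change (Hpn-/- minus WT) of the 40 tested interferon-inducible genes on the horizontal axis, grouped and coloured by role, with bars for 1 standard error of the edgeR fit over 3 Hpn-/- and 3 WT libraries. Values run from -0.81 for Ifit1 to 1.26 for Ifi209, most bars lie near 0, and no gene passed the test.

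Hpn-/- replicate 2 had the highest level of the 6 libraries in 26 of the 40 tested members (65.0%), whereas it was the highest library in 21.7% of all tested genes. Hpn-/- replicate 1 was the highest in 3 members, Hpn-/- replicate 3 in 0, WT replicate 1 in 1, WT replicate 2 in 8 and WT replicate 3 in 2. Taken as the difference from a gene's own mean log2 CPM, the median over members was 0.0069, 0.30 and -0.047 in Hpn-/- replicates 1, 2 and 3, against -0.16, 0.15 and -0.18 in WT replicates 1, 2 and 3. Both 6 week libraries with the high values, Hpn-/- replicate 2 and WT replicate 2, lay above Hpn-/- replicate 1, which was also 6 weeks old. Without Hpn-/- replicate 2 the values of 21 members were higher and 19 lower, the median log2 fold change of the members was 0.016, and 0 members were called.

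**Figure D2:**
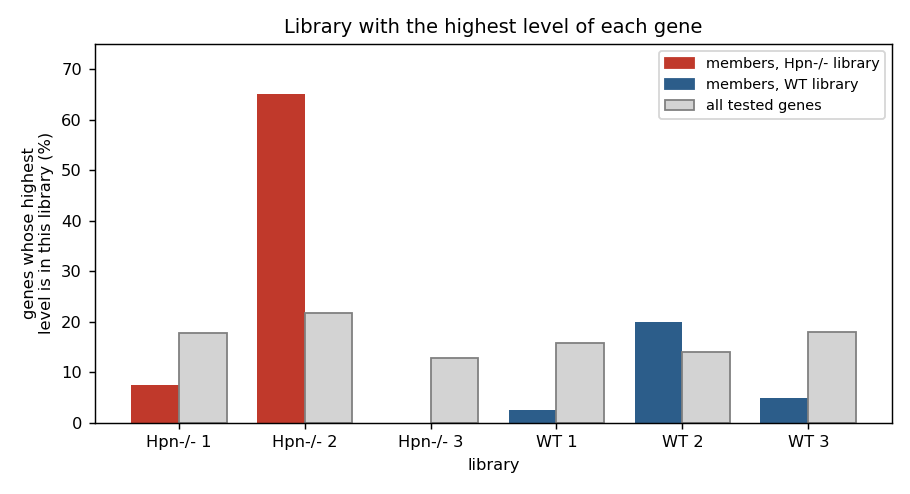
Share of genes, in percent, whose highest level falls in each of the 6 libraries, for the 40 tested interferon-inducible genes (red for Hpn-/- and blue for WT libraries) and for all 12520 tested genes (grey). The bar of Hpn-/- replicate 2 reaches 65.0% for the members and 21.7% for all tested genes.

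Levels of lymphocyte and myeloid markers also differed between these libraries. Of the T and NK cell markers 11 of 11 tested had higher values in Hpn-/- glands, with 7 of them under an unadjusted p of 0.05 and 0 called, beside 50.9% of all tested genes with higher values and 3.98% higher under that p. The summed level of all 13 T and NK cell markers was highest in Hpn-/- replicate 2 (128 CPM) and ran from 95.4 to 128 CPM in Hpn-/- glands, against 70.6 to 92.0 CPM in WT glands. The 8 B cell markers summed to 45.6 to 61.1 CPM in Hpn-/- glands, against 34.4 to 43.7 CPM in WT glands, and were again highest in Hpn-/- replicate 2. The 9 macrophage and monocyte markers summed to 174 to 226 CPM in Hpn-/- glands and 163 to 202 CPM in WT glands, and the 5 dendritic cell markers to 13.5 to 17.8 CPM in Hpn-/- glands and 11.6 to 13.3 CPM in WT glands. Among the macrophage and monocyte markers 5 were higher and 4 lower, with log2 fold changes from -0.41 for Mrc1 to 0.64 for Lyz2. Among the 4 tested dendritic cell markers 3 were higher and 1 lower, from -0.036 for Zbtb46 to 1.44 for Itgax. The 5 plasmacytoid dendritic cell markers, 2 of which (Bst2 and Irf8) stand in other lists too, summed to 69.0 to 71.9 CPM in Hpn-/- glands and 66.0 to 81.7 CPM in WT glands, and were highest in WT replicate 2. Most of that sum was Tcf4, at a mean of 45.4 CPM in Hpn-/- and 53.1 CPM in WT glands (log2 fold change -0.23). The other 4 markers had higher values in Hpn-/- glands, from 0.11 for Bst2 to 1.00 for Ccr9 as log2 fold changes. None of these markers was at 0 counts in all libraries, no marker of these lists passed the test over all genes, and their part in the levels of the interferon-inducible genes was not tested. In whole glands, fewer cells of a type and less RNA per cell cannot be told apart.

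**Figure D3:**
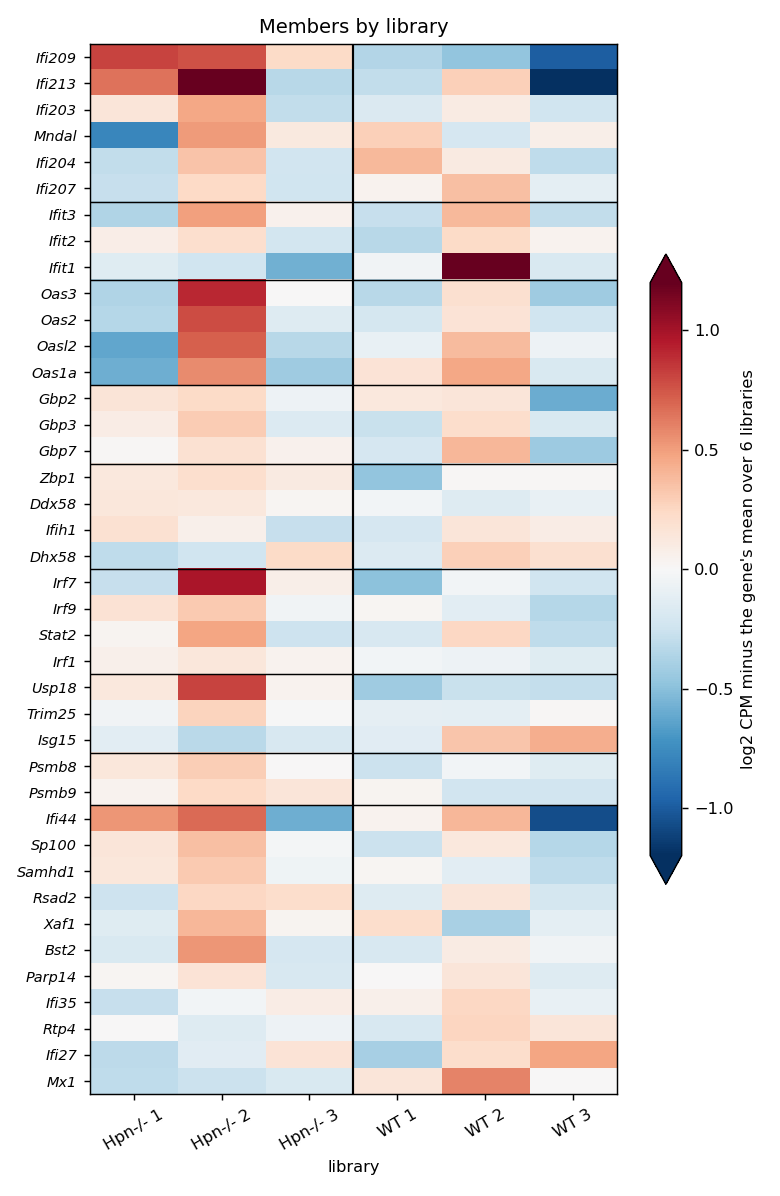
Log2 CPM of the 40 tested interferon-inducible genes (rows, grouped by role) in the 6 libraries (columns, Hpn-/- left of the line and WT right of it), shown as the difference from the gene's mean over the libraries, where red is higher, blue is lower and differences over 1.2 take the end colour. Red is most frequent in the column of Hpn-/- replicate 2, among others for Ifi213, Irf7, Usp18 and the Oas genes.

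The Ifi200 family was described apart from the others. Most of its proteins carry a HIN domain that binds DNA, and most carry a pyrin domain. They act in the nucleus and cytosol in DNA sensing, transcription and the cell cycle. The genes lie side by side on chromosome 1, and they share long stretches of sequence. Among its 6 tested members 3 were at higher and 3 at lower values, and their median log2 fold change was 0.071 with all libraries and -0.16 without Hpn-/- replicate 2.

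Ifi209 (ENSMUSG00000043263.13, chromosome 1, 173630917 to 173647928, plus strand) had the smallest p of the 40 tested members. Its level was 4.16, 4.03 and 2.74 CPM in Hpn-/- replicates 1, 2 and 3, against 1.78, 1.63 and 1.09 CPM in WT replicates 1, 2 and 3 (3.65 ± 0.788 CPM in Hpn-/- and 1.498 ± 0.362 CPM in WT glands, SD, n = 3 each). Each Hpn-/- library was above each WT library. The log2 fold change was 1.26 (SE 0.267), which did not pass edgeR's test over all genes (adjusted p = 0.30). The difference was about as large within each age, at 1.26 on the log2 CPM scale in the 6 week libraries and 1.22 in the 5 week libraries. Without Hpn-/- replicate 2 the log2 fold change was 1.18 and did not pass. It passed without the 5 week Hpn-/- replicate 3 (1.44, adjusted p = 0.00598 in edgeR) and with no count filter (1.27, adjusted p = 0.00186 in edgeR). Those 2 settings called more genes of all kinds, 89 and 76 higher and 111 and 24 lower, against 2 higher and 0 lower with all libraries and the filter. Of the 75-base stretches in its transcripts, the length of a read here, 23.0% also occur in transcripts of Ifi214, a gene of the same cluster, so part of its reads cannot be assigned to 1 gene.

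Ifi213 followed with 1.65, 2.48 and 0.758 CPM in Hpn-/- replicates 1, 2 and 3, against 0.783, 1.24 and 0.252 CPM in WT replicates 1, 2 and 3. The groups overlapped, the log2 fold change was 1.05 (SE 0.517, adjusted p = 0.77 in edgeR), and WT replicate 3 rested on 3 counts. Ifi203, after Ifi207 the most abundant member of the family per kb of exon, was at 10.1, 12.7 and 7.40 CPM in Hpn-/- glands and 8.05, 9.75 and 7.72 CPM in WT glands. Its log2 fold change of 0.23 (SE 0.185) lay within the spread, and its exons overlap those of Mndal on the same strand.

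The remaining members of the family had slightly lower values. Ifi207 was at 7.20, 10.4 and 7.40 CPM in Hpn-/- replicates 1, 2 and 3, against 9.04, 11.3 and 8.05 CPM in WT replicates 1, 2 and 3, a log2 fold change of -0.19 (SE 0.176). Ifi204, a sensor of cytosolic DNA, was at 2.78, 4.40 and 2.91 CPM in Hpn-/- glands and 4.56, 3.73 and 2.77 CPM in WT glands. Its groups overlapped, at a log2 fold change of -0.17 (SE 0.239). Mndal was at 0.396, 1.19 and 0.874 CPM in Hpn-/- glands and 0.997, 0.669 and 0.839 CPM in WT glands, with a log2 fold change of -0.089 (SE 0.427). Ifi211, which did not pass the count filter, was at 0.529, 0.458 and 0.524 CPM in Hpn-/- glands and 0.498, 0.669 and 0.923 CPM in WT glands. Of the stretches in Ifi211 transcripts 63.6% occur in another gene, most often in Ifi205, and the share was 13.2% for Ifi204, 11.1% for Mndal, 8.06% for Ifi213, 5.71% for Ifi203 and 2.80% for Ifi207.

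**Figure D4:**
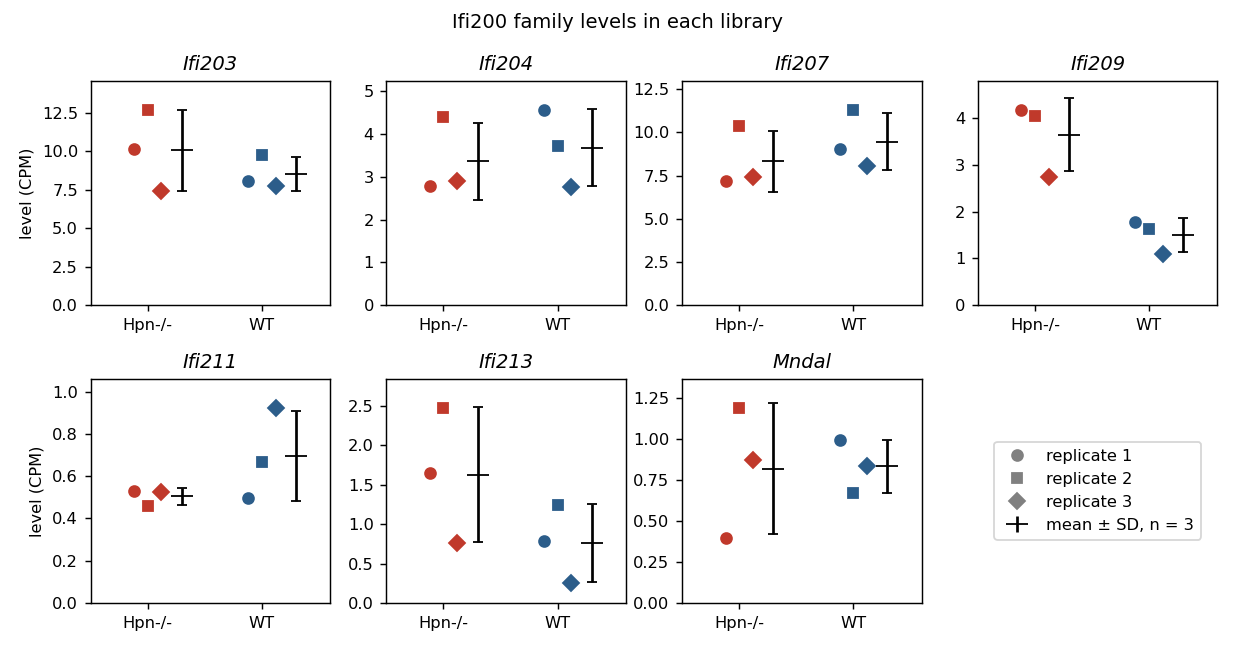
Levels in CPM of the 7 Ifi200 family members in each Hpn-/- (red) and WT (blue) library, with a marker shape per replicate number and black bars for the mean ± SD (n = 3). The Ifi209 groups do not overlap (2.74 to 4.16 CPM in Hpn-/- and 1.09 to 1.78 CPM in WT glands), and the groups of the other 6 genes do.

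The cluster as a whole was then read along the chromosome. It holds 12 protein-coding genes between Ifi206 and Ifi205 (chromosome 1, 173468485 to 174031810, GRCm38), of which 11 were tested, and the 5 that are no members of the list were added by their position after values had been seen. From the Ifi206 end, the log2 fold changes were 0.33 for Ifi206, 0.57 for Ifi214, 1.05 for Ifi213, 1.26 for Ifi209 and 0.66 for Ifi208. Beyond Ifi208 they were -0.19 for Ifi207, -0.17 for Ifi204, -0.089 for Mndal, 0.23 for Ifi203, -0.55 for Ifi202b and -0.37 for Ifi205. The 5 genes at one end of the cluster had higher values and 5 of the 6 other tested genes lower ones, a split that was made after the values were seen. Ifi202b was at 2.61 ± 0.370 CPM in Hpn-/- and 3.81 ± 0.394 CPM in WT glands (SD, n = 3 each), and all its Hpn-/- libraries lay below all its WT libraries. No gene of the cluster passed edgeR's test (smallest adjusted p = 0.30, for Ifi209), and neighbouring genes that share sequence are not independent of each other. Reads of FVB mice were counted on a C57BL/6J genome, and an effect of strain differences on these genes was not tested.

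**Figure D5:**
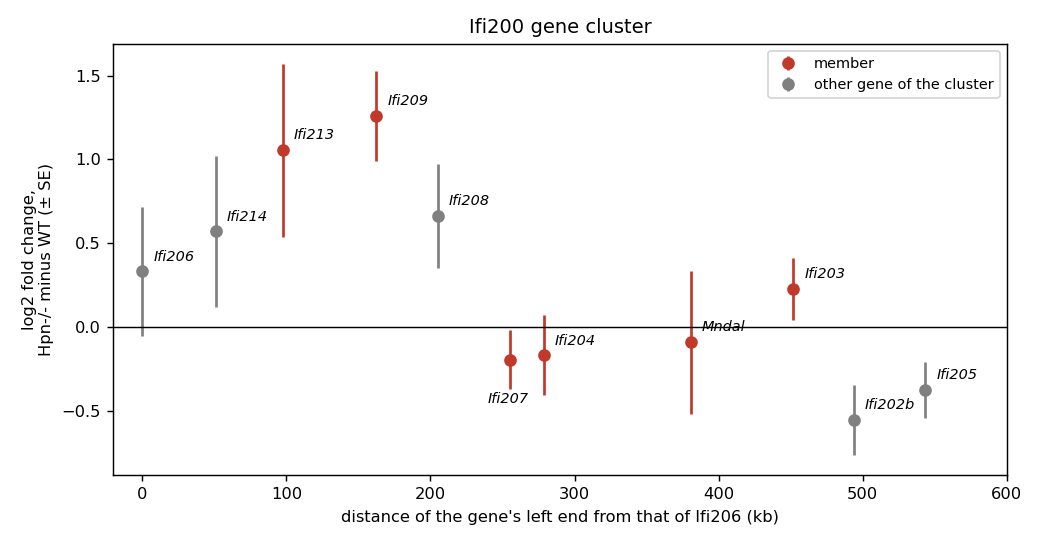
Log2 fold change (Hpn-/- minus WT, bars for 1 standard error) of the 11 tested genes of the Ifi200 cluster, against the distance in kb of each gene's left end from that of Ifi206, with members in red and the other genes in grey. The 5 genes from Ifi206 to Ifi208 lie above 0, and of the 6 genes to their right Ifi203 alone lies above 0.

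The cytosolic sensors differed little. Ddx58, which encodes the RNA sensor RIG-I, was the most abundant of them per kb of exon and stood at 12.9, 12.8 and 11.9 CPM in Hpn-/- glands, against 11.5, 10.5 and 10.99 CPM in WT glands (log2 fold change 0.19, SE 0.133, adjusted p = 0.86 in edgeR). Zbp1, a sensor of Z-form nucleic acid that can trigger necroptosis, was at 5.88, 6.24 and 5.83 CPM in Hpn-/- glands, against 3.85, 5.45 and 5.45 CPM in WT glands (log2 fold change 0.29, SE 0.181, adjusted p = 0.84 in edgeR). In both genes the groups did not overlap. Ifih1, the RNA sensor MDA5, was at -0.019 and Dhx58, the related LGP2, at -0.18 on the log2 scale of the fold change, with overlapping groups.

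The transcription factors of the pathway all had higher values, and none passed the test. Irf1, an early target of interferon gamma, was at 17.0, 18.0 and 16.8 CPM in Hpn-/- glands, against 15.9, 15.6 and 14.7 CPM in WT glands. The groups did not overlap, although the log2 fold change was only 0.16 (SE 0.124, adjusted p = 0.88 in edgeR). Irf9, the DNA-binding partner of STAT2, was at 8.99, 9.90 and 7.69 CPM in Hpn-/- glands, against 8.05, 7.26 and 6.21 CPM in WT glands (log2 fold change 0.29, SE 0.160, adjusted p = 0.81 in edgeR). Irf7, which amplifies type I interferon production, was at 4.82, 11.7 and 6.18 CPM in Hpn-/- replicates 1, 2 and 3, against 4.13, 5.74 and 4.95 CPM in WT replicates 1, 2 and 3. Its log2 fold change of 0.60 (SE 0.318) was 0.17 without Hpn-/- replicate 2. Stat2 was at 0.18 with all libraries and -0.034 without that library.

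The Ifit genes, which encode proteins that bind foreign RNA, had values on both sides of 0 as fold changes, and none passed the test. Ifit1 was at 1.39, 1.28 and 0.991 CPM in Hpn-/- glands, against 1.495, 3.73 and 1.34 CPM in WT glands. WT replicate 2 had 39 counts and the other libraries 14 to 21. The log2 fold change of -0.81 (SE 0.378, adjusted p = 0.72 in edgeR) was -0.23 without WT replicate 2. Ifit2, the most abundant of them per kb, was at 3.17, 3.48 and 2.56 CPM in Hpn-/- glands, against 2.35, 3.54 and 3.10 CPM in WT glands, a log2 fold change of 0.036 (SE 0.229). Ifit3 was at 0.13, and 41.1% of its stretches also occur in its copy Ifit3b.

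The Oas genes, whose enzymes make the 2-5A signal that activates RNase L, followed Hpn-/- replicate 2. Oas3 was at 1.32, 3.39 and 1.75 CPM in Hpn-/- replicates 1, 2 and 3, against 1.35, 2.01 and 1.26 CPM in WT replicates 1, 2 and 3 (log2 fold change 0.45, SE 0.349, adjusted p = 0.89 in edgeR). Oasl2 was at 3.63, 9.44 and 4.49 CPM in Hpn-/- glands, against 5.34, 7.46 and 5.45 CPM in WT glands, a log2 fold change of -0.089 (SE 0.348). In both genes the highest of the 6 values was that of Hpn-/- replicate 2 and the next that of WT replicate 2. Oas2 was at 0.24 and Oas1a at -0.32, with overlapping groups. Without Hpn-/- replicate 2 the log2 fold changes were 0.019 for Oas3, -0.57 for Oasl2, -0.16 for Oas2 and -0.76 for Oas1a. Oas1a shares 47.6% of its stretches with Oas1g.

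The Gbp genes encode guanylate-binding proteins, GTPases that attack the vacuoles of intracellular pathogens. Gbp2 was the most abundant per kb and was at 9.52, 10.1 and 8.22 CPM in Hpn-/- glands, against 9.33, 9.46 and 5.62 CPM in WT glands. The low value was that of WT replicate 3 (log2 fold change 0.18, SE 0.185, adjusted p = 0.92 in edgeR). Gbp3 and Gbp7 were at 0.15 and 0.13, and the groups overlapped in all 3 genes.

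The ubiquitin-like modifier ISG15 and its protease USP18 had values in opposite directions. Usp18, which removes ISG15 from proteins and dampens IFNAR signalling, was at 2.05, 3.39 and 1.92 CPM in Hpn-/- glands, against 1.35, 1.53 and 1.51 CPM in WT glands. The groups did not overlap. The log2 fold change of 0.71 (SE 0.289) did not pass (adjusted p = 0.63 in edgeR) and was 0.44 without Hpn-/- replicate 2. Isg15 itself was at 0.859, 0.734 and 0.816 CPM in Hpn-/- glands, against 0.854, 1.24 and 1.34 CPM in WT glands, on 8 to 16 counts per library (log2 fold change -0.48, SE 0.353). It was the 1 tested member for which Hpn-/- replicate 2 was the lowest library. Trim25, a ubiquitin ligase that acts on RIG-I, was at 16.9, 21.1 and 17.4 CPM in Hpn-/- glands, against 16.2, 16.2 and 17.6 CPM in WT glands (log2 fold change 0.14, SE 0.132).

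The immunoproteasome subunits Psmb8 and Psmb9, which shape peptides for MHC class I, both had groups that did not overlap. Psmb8 was at 13.4, 14.9 and 12.2 CPM in Hpn-/- glands, against 10.2, 11.9 and 10.99 CPM in WT glands (log2 fold change 0.29, SE 0.140, adjusted p = 0.73 in edgeR). Psmb9 was at 6.61, 7.61 and 7.11 CPM in Hpn-/- glands, against 6.55, 5.45 and 5.45 CPM in WT glands (log2 fold change 0.28, SE 0.162, adjusted p = 0.82 in edgeR). Psmb9 overlaps Tap1 on the opposite strand, and no source used here gives the strand setting of the counting.

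Among the other effectors, Sp100, a component of PML nuclear bodies, was at 24.7, 28.7 and 21.9 CPM in Hpn-/- glands, against 18.6, 24.4 and 17.5 CPM in WT glands (log2 fold change 0.32, SE 0.148, adjusted p = 0.72 in edgeR). Mx1, a GTPase that blocks viral ribonucleoproteins and is defective in most inbred mouse strains, was at 1.06, 1.10 and 1.17 CPM in Hpn-/- glands, against 1.495, 2.10 and 1.34 CPM in WT glands. It was the 1 member whose Hpn-/- libraries all lay below all WT libraries (log2 fold change -0.55, SE 0.305, adjusted p = 0.82 in edgeR). Samhd1, which hydrolyses dNTPs, was at 0.27, Parp14, an ADP-ribosyltransferase, at -0.0013, and Bst2, which tethers budding virions, at 0.11. Xaf1 was at 0.17, Rsad2, whose product viperin inhibits viral replication, at 0.17, Ifi44 at 0.42, Ifi35 at -0.14 and Rtp4 at -0.15, all on the log2 scale of the fold change and all with overlapping groups.

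Counting members rather than sizes, 7 of the 40 had all Hpn-/- above all WT libraries (Ifi209, Ddx58, Zbp1, Irf1, Usp18, Psmb8 and Psmb9), which is 17.5%, against 5.94% of all tested genes. In the other direction it was Mx1, 1 of 40, against 5.04% of all tested genes. Leaving out a library cannot undo such a separation, so these 7 members and Mx1 had to stay apart without Hpn-/- replicate 2. No further member came apart on the higher side, where the share of all tested genes was then 8.61%. On the lower side 4 members were then apart (Ifi207, Oasl2, Oas1a and Mx1), against 7.77% of all tested genes. The members share regulators and libraries and are not independent, and no member of either kind passed the test.

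In the gland the levels of the members spanned a wide range. Per kb of exon, over all 6 libraries, Ifi27, which encodes a small hydrophobic protein, was highest at 25.5 ± 6.04 CPM per kb (SD, n = 6). Its level was 29.4, 33.2 and 40.9 CPM in Hpn-/- replicates 1, 2 and 3, against 27.6, 42.4 and 50.7 CPM in WT replicates 1, 2 and 3. Hpn-/- replicate 2 was not its highest library, and the log2 fold change was -0.22 (SE 0.206). Bst2 followed at 6.54 ± 1.47, Irf1 at 4.11 ± 0.292, Samhd1 at 3.94 ± 0.592 and Psmb8 at 3.63 ± 0.506 CPM per kb. The low end was formed by Mndal at 0.228 ± 0.0755, Ifi213 at 0.175 ± 0.115 and Ifi44 at 0.124 ± 0.0610 CPM per kb. Of the 40 pairs of neighbours in this order, 38 had overlapping ranges over the libraries, whereas Ifi27 lay clear of Bst2, and Bst2 of Irf1. The genes were measured in the same libraries, so overlapping ranges do not show that neighbours are equal. Neighbours were not tested against each other.

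Other genes of the pathway were examined as lists. Of 36 components (receptors, kinases, regulators and ligands), 26 were tested, 18 had higher and 8 lower values, and 0 passed in edgeR. At an unadjusted p under 0.05, 3 of the 26 were higher and 0 lower, beside 3.98% and 2.9% of all tested genes. The 9 interferon genes among them (Ifnb1, Ifne, Ifnk, Ifna1, Ifna2, Ifna4, Ifng, Ifnl2 and Ifnl3) had 0 counts in all 6 libraries. Those counts allow a level of up to 0.175 to 0.287 CPM per library (3 counts, counting error only). As the library size includes ribosomal RNA, these limits would be several times higher on the counts of all other genes. Ikbke, a kinase that activates interferon regulatory factors, was at 19.03, 22.6 and 19.3 CPM in Hpn-/- glands, against 13.2, 16.5 and 12.5 CPM in WT glands (log2 fold change 0.53, SE 0.141, adjusted p = 0.44 in edgeR). Tlr9, the endosomal receptor for CpG DNA, was at 3.17, 5.13 and 3.55 CPM in Hpn-/- glands, against 2.71, 2.48 and 2.35 CPM in WT glands (log2 fold change 0.62, SE 0.229, adjusted p = 0.60 in edgeR). For Ikbke and for Tlr9 each Hpn-/- library exceeded each WT library. Jak1, the most abundant component per kb, was at 0.042 (SE 0.131).

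A second list held 48 further interferon-inducible genes, of which 39 were tested. The values of 27 were higher and those of 12 lower, with a median log2 fold change of 0.21. None passed in edgeR, and 5 of the 39 were higher and 1 lower at an unadjusted p under 0.05, beside 3.98% and 2.9% of all tested genes. Cxcl9, a chemokine induced by interferon gamma that attracts T cells, was at 2.51, 1.93 and 1.98 CPM in Hpn-/- glands, against 1.07, 1.147 and 1.01 CPM in WT glands. The groups did not overlap (log2 fold change 1.00, SE 0.283, adjusted p = 0.48 in edgeR). Ccl5, a chemokine of activated T cells and NK cells, was at 10.2, 14.8 and 10.8 CPM in Hpn-/- glands, against 10.5, 8.12 and 6.96 CPM in WT glands (log2 fold change 0.46, SE 0.181). Ifi27l2a, the most abundant gene of this list per kb, was at 26.4, 47.3 and 23.4 CPM in Hpn-/- replicates 1, 2 and 3, against 25.1, 24.4 and 25.8 CPM in WT replicates 1, 2 and 3. Its value was again highest in Hpn-/- replicate 2, with the other 5 libraries close together.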

How the data were processed

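The deposited table gives raw counts of reads per gene for 6 libraries, per the file headers. STAR 2.6.0c and featureCounts, with GRCm38, stand in the submitters' processing notes beside bcl2fastq, Trimmomatic and DESeq2. The kit marks the strand, per the labels' protocols, but no source used here gives the strand setting or the handling of reads that map to several places. All 55450 identifiers matched GENCODE M21. By exon overlap, 7 members overlap another gene on the same strand and 8 on the opposite strand, and their counts are uncertain.

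Counts were tested in R 4.3.3 with edgeR 4.0.16 (filterByExpr, minimum count 10 and minimum total 15, TMM factors 0.914 to 1.24, quasi-likelihood fit with genotype as the only term). The p-values, two-sided, were adjusted by Benjamini-Hochberg over 12520 genes and called under 0.05. The log2 CPM used a prior count of 2. On counts simulated for these 12520 genes the test recovered 28% of genes changed 1.5-fold and 62% changed 2-fold. DESeq2 1.42.0, limma-voom (limma 3.58.1), other scalings and filters, age, the replicate number and leaving out libraries were alternatives. Members, lists and the rule for named genes (every Ifi200 gene, and per role the gene of smallest p and the most abundant per kb) were chosen with earlier results of these data known. Other genes given with values, among them Irf7, Isg15, Mx1, Psmb9 and Ifi202b, were picked with their values in view. Labels number the samples without naming animals, so p-values measure the spread between samples. Libraries within a group differed by more than sampling noise (6.89 to 32.2 for chi-square over its degrees of freedom).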

Additional observations from a re-analysis of the deposited data

How the results depend on the processing

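The call of 0 members higher held in each alternative but no count filter and without Hpn-/- replicate 3, where Ifi209 made it 1 (log2 fold change 1.27, adjusted p = 0.00186, and 1.44, adjusted p = 0.00598, in edgeR), so leaving out single libraries gave 0 to 1, and 0 members were lower in each alternative. Over all alternatives the adjusted p of Ifi209 ran from 0.00186 to 1.00 and its log2 fold change from 1.07 to 1.44. Over all genes, 2 were called higher and 0 lower. The counts were 76 and 24 with no count filter, 8 and 0 with DESeq2, 0 and 0 with limma-voom, 0 and 0 with an age term over all 6 libraries, and 3 and 1 with age in the libraries of 5 and 6 weeks, and without single libraries they ran from 0 to 89 higher and from 0 to 111 lower. The replicate number as a block gave 8 higher and 1 lower genes and 0 members (Ifi209 adjusted p = 0.0629 in edgeR). Deviations of same-numbered libraries correlated at 0.167, 0.0732 and 0.368. Each Hpn-/- replicate correlated best with the WT replicate of its own number, for replicate 2 by little (0.0732 against 0.0671 with WT replicate 1). WT replicate 2, however, correlated better with Hpn-/- replicate 1 (0.127) than with its own number. Skeletal muscle markers summed to 825, 205 and 12.7 CPM in Hpn-/- replicates 1, 2 and 3. In WT replicates 1, 2 and 3 they summed to 536, 83.2 and 38.9 CPM, which is the same order. Replicate 1 joins an Hpn-/- gland of 6 weeks with a WT gland of 2 weeks. These values do not settle whether the numbers pair the samples, and the part of muscle or age in the correlations was not tested. The median of the members ran from 0.016 to 0.21 over the alternatives and that of the Ifi200 family from -0.16 (without Hpn-/- replicate 2) to 0.23 (filter of 1 CPM). Of the 40 tested members 27 kept their sign in every one of the 15 alternatives that tested them (Ifi44 was not tested under the filter of 1 CPM). The cause of these changes was not tested. With 1798932 to 3071401 counts outside ribosomal RNA per library, genes with few counts, such as Isg15, Ifi44 and Mndal, have wide errors.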

Other observations

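Comparing libraries of the same age leaves 2 Hpn-/- and 1 WT library at 6 weeks and 1 of each at 5 weeks, so these differences have no test. The median difference in log2 CPM (Hpn-/- minus WT) over the 40 tested members was 0.05 at 6 weeks, with 22 higher, and 0.09 at 5 weeks, with 26 higher. Over all 12520 tested genes the medians were -0.0036 at 6 weeks and -0.00068 at 5 weeks, with 6208 and 6247 genes higher. The 6 week differences include Hpn-/- replicate 2 and rest on WT replicate 2 alone. In these libraries the median over members was highest, at 0.30 and 0.15. The 4 transcription factors were at medians of 0.27 and 0.25 and the 2 immunoproteasome genes at 0.31 and 0.26, with every gene higher at both ages. The Ifit genes were at -0.32 and -0.26 and the Oas genes at -0.14 and -0.08. The Gbp genes were at -0.01 at 6 weeks and 0.49 at 5 weeks.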
